A study of Mus musculus with 24 samples.

Results

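Wild type kidney was compared with wild type heart in 4 mice, each of which gave 1 array of either organ, so that 8 of the 24 arrays of the series entered the comparison. The arrays were chosen by their labels alone, and the 2 arrays of a mouse were paired through the mouse identifier in the labels. All 4 mice were of the C3HeB/FeJ strain, wild type at Kctd1 and 18.5 weeks of age, and no treatment is stated. The series was made to describe mice with the substitution Kctd1L27N: brain, heart and kidney of these 4 mice and of 4 heterozygous mice of the same strain and age were hybridised, 1 array per organ and mouse. A further wild type animal is mentioned by the design text (5 in all), and the 4 with arrays were analysed here. The labels give neither the sex of the mice nor the part of the organ that was taken. The Y-linked gene Eif2s3y was detected on all 8 arrays. Of 5 sex-linked genes listed, 4 were tested, and 3 of these were detected on no kidney array. Ddx3y has no probe named here, and the sex of the mice was not tested.

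The kidney filters blood through podocyte-covered glomerular capillaries, and the tubule behind each glomerulus then takes back salt, water, sugars, amino acids and phosphate, segment by segment. The proximal tubule does most of this uptake with brush border transporters, and the thick ascending limb, distal convoluted tubule and collecting duct adjust salt, acid and water. The heart is made largely of striated muscle cells whose filaments contract on calcium release, and which burn fatty acids in densely packed mitochondria.

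Levels are log2 intensities of Illumina bead array probes after background correction and quantile normalization of the 8 arrays together, and values on single arrays are given in the order of mouse 1 to 4. A probe counts as detected on an array at a detection p under 0.05 against the negative control beads. A difference is kidney minus heart on the log2 scale with its standard error (SE) from a paired limma fit, and a probe was called at a Benjamini-Hochberg adjusted p under 0.05. Each gene is represented by its brightest tested probe, and levels of different probes cannot be set against each other. Kidney arrays detected 10692 to 11331 of 25697 probes (mean 10933 ± 280, SD, n = 4) and heart arrays 11838 to 12649 (12147 ± 349, SD, n = 4). The difference was −1214 probes, lower in kidney in all 4 mice, with an exact two-sided sign-flip p of 0.13, the smallest that 4 pairs allow. Over the tested probes, kidney arrays correlated with each other at 0.985 to 0.991, heart arrays at 0.991 to 0.994, and arrays of different organs at 0.667 to 0.685. The array numbers in the labels put all 4 hearts before all 4 kidneys, so organ and array order cannot be told apart.

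Most of the measured transcriptome differed between the 2 organs. Of 13596 probes tested, those detected on at least 2 of 4 arrays of either organ, 10054 were called (73.9%), 4668 of them higher in kidney (34.3%) and 5386 higher in heart (39.6%). A difference of 2-fold or more was called for 4055 probes (29.8%), of which kidney had the higher level in 1907 (14.0%) and heart in 2148 (15.8%). At 4-fold or more the counts were 886 in kidney (6.52%) and 741 in heart (5.45%), and at 16-fold or more 239 and 152. Levels of the 4 kidneys and the 4 hearts did not overlap for 9025 probes (66.4%). In genes, 7098 of 9470 were called (75.0%), 3006 of them by 2-fold or more (31.7%), with 3414 higher in kidney (36.1%) and 3684 higher in heart (38.9%), and the groups did not overlap for 6462 (68.2%). These shares are the background for every list below. The split moved with the normalization. When quantile normalization was replaced by a shift of each array to 1 common median, the median difference of all tested probes moved from −0.07 to −0.32, and 1344 probes were called 2-fold higher in kidney against 3385 in heart. Kidney thus held 47.0% of the 2-fold calls with quantile normalization and 28.4% with the common median.

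**Figure D1:**
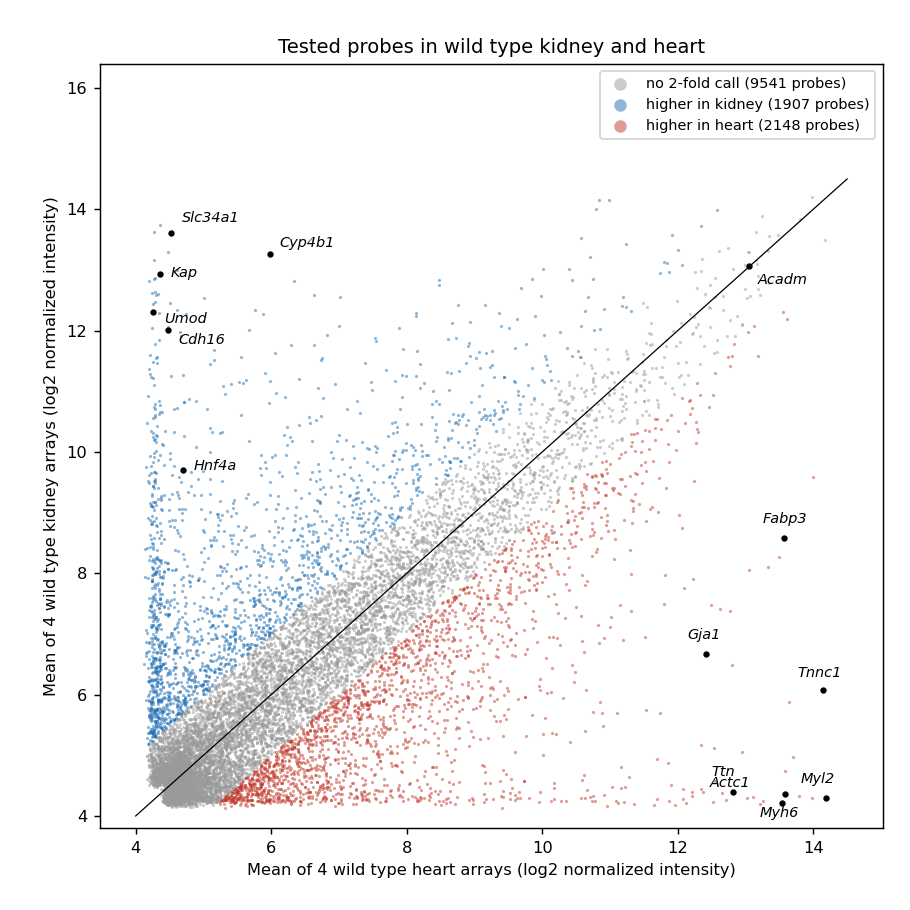
Mean log2 normalized intensity of the 13596 tested probes in 4 wild type hearts (x axis) and 4 wild type kidneys (y axis), with the line of equal level. Blue probes were called 2-fold or more higher in kidney (1907), red probes 2-fold or more higher in heart (2148), and named genes lie at the far ends except Acadm, which lies on the line.

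Many of the calls were close to an all-or-none pattern. Of the tested probes, 564 were detected on all 4 kidney and no heart array, 958 on all 4 heart and no kidney array, and 8193 on all 8 arrays. Where a probe was detected on no array of the dimmer organ, the fold is given as a lower bound, against the dimmest detected signal of those arrays. Such a bound applied to 448 of the 1907 calls of 2-fold or more in kidney and to 401 of the 2148 in heart. Detection in 1 organ alone did not imply a large difference. Chrm2, detected on 4 heart and 0 kidney arrays, differed by −0.64, or at least 1.2-fold. With these genes at their bound, list medians moved by at most 0.38 and none changed sign, for example from 4.32 to 4.19 for proximal tubule transport, −7.70 to −7.61 for the thick filament and −2.16 to −1.78 for calcium handling. In whole organs, fewer cells of a type and less RNA per cell cannot be told apart.

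The 12 genes with the largest measured differences towards kidney included transporters, enzymes, a scaffold protein and Kap. Slc34a1, the sodium phosphate cotransporter of the proximal tubule, read 13.64, 13.58, 13.64 and 13.58 in kidney and 4.61, 4.23, 4.94 and 4.29 in heart. The groups were far apart, and 2 of the 4 hearts had a detected signal. The difference was 9.09 (SE 0.12, adjusted p = 5.87e-15), or 547-fold. Ugt3a2, a UDP glycosyltransferase, stood at 13.53, 13.64, 13.70 and 13.61 in kidney and at 4.24, 4.19, 4.44 and 4.18 in heart, where no array detected it. It was at least 557-fold higher in kidney (difference 9.36, adjusted p = 2.44e-15). Napsa, an aspartic protease, differed by 9.39 (SE 0.10), with a signal detected in 1 heart. Dnase1, a secreted nuclease, was at least 407-fold higher, and Slc22a6, the organic anion transporter OAT1, at least 319-fold. Pdzk1, a scaffold of brush border transporters, was at least 327-fold higher, and Keg1, a glycine acyltransferase relative, at least 329-fold. Kap, the androgen-regulated protein of the mouse proximal tubule, was 385-fold higher and was detected in 1 heart. The other genes among the 12 were Miox (8.38), Hsd3b4 (8.38), Slc27a2 (8.35) and Cyp4a12a (8.28). Cyp4a12a and Hsd3b4 belong to families of near-identical genes, whose transcripts a probe may not separate.

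The 12 genes with the largest measured differences towards heart were parts of the contractile filaments, 1 hormone and muscle proteins of energy supply. Myl2, the regulatory light chain of ventricular myosin, read 4.24, 4.25, 4.32 and 4.39 in kidney and 14.13, 14.17, 14.22 and 14.22 in heart. No kidney array detected it, and it was at least 751-fold higher in heart (measured difference −9.88, SE 0.09, adjusted p = 2.44e-15). Genes with such a bound have no order among themselves. Nppa, which encodes atrial natriuretic peptide, stood at 4.25, 4.41, 4.32 and 4.21 in kidney against 13.93, 13.93, 14.13 and 13.93 in heart. It was at least 653-fold higher in heart (difference −9.68, SE 0.10). Myl3, a ventricular essential light chain, was at least 572-fold higher, Myh6, the alpha myosin heavy chain, at least 493-fold, and Actc1, cardiac actin, at least 478-fold. Ckmt2, the mitochondrial creatine kinase of muscle, was at least 395-fold higher and Csrp3, a Z disc protein, at least 356-fold. Mb, myoglobin, was 461-fold higher, with a signal detected in 2 of 4 kidneys. Cox6a2 (−8.74), Ttn (−8.43), Tcap (−8.29) and Tnnc1 (−8.06) completed the 12. Of these, Cox6a2 and Tnnc1 were detected on all 4 kidney arrays.

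Promoter sequences of RefSeq were available for 533 of the 666 genes called 4-fold or more higher in kidney (7.03% of genes) and for 417 of the 551 in heart (5.82%). They hold the stretch just before the annotated start and the first bases after it, and were searched on both strands for motifs of factors known for these organs. The core of the HNF1 site (an inverted repeat of TTAAT around any base) was in 4 promoters of the kidney genes (0.75%) and in 0 of the heart genes, against 0.091% of tested genes and 0.141% of all 27025 genes of the table. The HNF4 motif CAAAGTCCA was in 11 kidney promoters (2.06%) and 2 heart promoters (0.48%), against 0.572% of tested genes. The MEF2 motif was in 0 kidney promoters and 12 heart promoters (2.88%), against 0.559% of tested genes, and the CArG box in 6 (1.13%) and 19 (4.56%), against 1.72%. TCAAGGTCA, bound by ERR receptors, was in 0 and 3 (0.719%), against 0.377%. TATAAA was in 71 (13.3%) and 65 (15.6%), against 9.92% of tested genes but 15.7% of all genes of the table. These matches are counts of letters in the window and carry no test. For each organ, the promoters of the 2 genes with the largest differences among those with a match are given here from RefSeq in the build GRCm38.p6, because they carry the motif where the difference was largest, with the HNF1 core or the MEF2 motif in capitals. None of these 4 matches overlapped another motif of the search.
Hsd3b4: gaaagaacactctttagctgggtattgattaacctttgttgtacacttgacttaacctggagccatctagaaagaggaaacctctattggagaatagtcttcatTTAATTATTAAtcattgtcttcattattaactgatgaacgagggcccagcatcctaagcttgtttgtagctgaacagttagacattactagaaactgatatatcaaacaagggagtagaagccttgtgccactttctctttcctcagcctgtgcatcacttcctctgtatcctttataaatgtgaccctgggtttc
Cltrn: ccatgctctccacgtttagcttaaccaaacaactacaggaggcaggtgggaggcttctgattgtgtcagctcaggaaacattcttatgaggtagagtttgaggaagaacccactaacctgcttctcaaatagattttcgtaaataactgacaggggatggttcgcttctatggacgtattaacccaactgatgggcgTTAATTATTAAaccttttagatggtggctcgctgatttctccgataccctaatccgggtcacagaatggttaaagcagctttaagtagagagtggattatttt
Ttn: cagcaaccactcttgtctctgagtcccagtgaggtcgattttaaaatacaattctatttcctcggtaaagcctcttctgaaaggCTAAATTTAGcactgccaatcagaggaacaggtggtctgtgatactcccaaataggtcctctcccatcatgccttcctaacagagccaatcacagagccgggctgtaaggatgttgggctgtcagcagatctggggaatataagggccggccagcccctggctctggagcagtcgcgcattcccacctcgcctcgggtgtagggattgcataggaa
Mybpc3: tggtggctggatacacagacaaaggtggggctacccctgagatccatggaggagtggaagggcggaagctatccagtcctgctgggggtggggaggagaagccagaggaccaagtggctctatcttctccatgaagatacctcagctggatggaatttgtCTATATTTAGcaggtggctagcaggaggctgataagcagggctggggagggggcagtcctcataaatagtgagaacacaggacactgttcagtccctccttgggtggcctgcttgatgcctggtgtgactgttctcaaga
The Hsd3b4 window lies at chr3:98510423-98510722 on the minus strand and the Cltrn window at chrX:164089937-164090236 on the plus strand. Their HNF1 cores span positions −146 to −136 and −53 to −43 from the annotated start. The Ttn window lies at chr2:76982498-76982797 on the minus strand, with the motif at −166 to −157, and the Mybpc3 window at chr2:91117894-91118193 on the plus strand, with the motif at −90 to −81. Hsd3b4, a steroid dehydrogenase family member, read 12.58, 12.60, 12.77 and 12.51 in kidney and was detected in no heart (at least 277-fold). Cltrn, collectrin, a partner of amino acid transporters in the brush border, read 12.79, 12.24, 12.48 and 12.35 and was at least 250-fold higher (difference 8.18). Ttn, the giant elastic protein of the sarcomere, read 12.74, 12.74, 12.92 and 12.87 in heart and was at least 291-fold higher there. Mybpc3, cardiac myosin binding protein C, read 11.74, 12.10, 12.08 and 12.38 in heart and was at least 174-fold higher. The other HNF1 matches were in Prodh2 and Akr1c19, and the next MEF2 match by size of the difference was in Myoz2.

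A gene detected in 1 organ alone passed the detection filter through that organ, so its direction was fixed by the filter, and the list counts describe the tested members. Of 19 genes of proximal tubule transport with a probe, 17 were tested and called higher in kidney, with a median difference of 4.32 against −0.04 over all genes. Of these, 11 were detected in no heart. They included Slc22a18 (7.59), Slc22a12, the urate transporter URAT1 (5.92), the sodium glucose cotransporter Slc5a2 (4.14), and the neutral amino acid transporter Slc6a19 (4.48). Lrp2, the endocytic receptor megalin, was the lowest of them at 0.45 and was detected on 3 kidney arrays. All 8 tested brush border genes were higher in kidney (median 2.90), 4 of them without a detected heart array, among them Vil1, villin (4.02), and Treh, trehalase (3.69). All 9 genes of the thick ascending limb were called in kidney (median 3.18), and 7 of them were detected in no heart. Umod, uromodulin, read 12.54, 12.38, 12.24 and 12.05 in kidney and was detected in no heart, a difference of 8.04 (SE 0.11, adjusted p = 6.78e-15), or at least 223-fold. Slc12a1, the sodium potassium chloride cotransporter of this segment, read 10.72, 10.33, 10.35 and 9.57, also without a detected heart array (at least 53.5-fold). Egf, made in the distal nephron, differed by 5.07 and Cldn10 by 7.52.

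The distal convoluted and connecting tubule had 6 of 7 tested genes higher in kidney (median 2.24). Fxyd2, a subunit of the sodium pump, differed by 7.74, and Klk1, tissue kallikrein, by 5.72. Pvalb, the calcium buffer parvalbumin, read 10.90, 10.87, 10.89 and 10.86 in kidney and 4.93, 4.71, 5.03 and 4.49 in heart (6.09, SE 0.11). Slc12a3, the thiazide-sensitive cotransporter, differed by 2.03 on its brightest probe and by 6.05 on another that was detected in no heart. The exception was Slc8a1, a sodium calcium exchanger that heart muscle uses as well, which was higher in heart (−2.62, SE 0.12). Among collecting duct genes all 8 of the principal cell list (median 3.18) and all 7 of the intercalated cell list (1.81) that were tested were higher in kidney. In these lists 6 and 3 were detected in no heart, and 2 of 10 and 4 of 11 with a probe did not pass the filter. Fxyd4, a sodium pump regulator, differed by 4.23, the water channel Aqp3 by 3.74 and Scnn1b, a sodium channel subunit, by 3.63. Aqp2, the vasopressin-regulated water channel, differed by 1.48, with levels of 5.57, 5.78, 5.69 and 5.84 in kidney and no detected heart array. Of the intercalated cell genes, the chloride bicarbonate exchangers Slc26a4 and Slc4a1 differed by 3.48 and 2.80, and Slc4a1 is also made by erythroid cells. Atp6v1b1, a proton pump subunit of these cells, did not pass the detection filter.

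The glomerulus list went the other way. Of its 5 tested genes 4 were higher in heart and 1 in kidney, with a median of −0.71. Podxl, the sialoprotein podocalyxin of podocytes and vessels, read 5.44, 5.74, 5.35 and 5.93 in kidney and 6.90, 7.12, 7.09 and 6.67 in heart (−1.33, SE 0.14, adjusted p = 2.1e-06). Wt1, a transcription factor of podocytes and of the heart's outer layer, read 5.83, 5.79, 5.48 and 5.30 against 6.64, 7.04, 6.81 and 6.79 (−1.22, SE 0.12, adjusted p = 8.41e-07). In both genes every kidney lay below every heart. Ptpro, a podocyte phosphatase, was higher in kidney (0.47, SE 0.12). With the common median its difference was 0.10 and was not called.

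**Figure D2:**
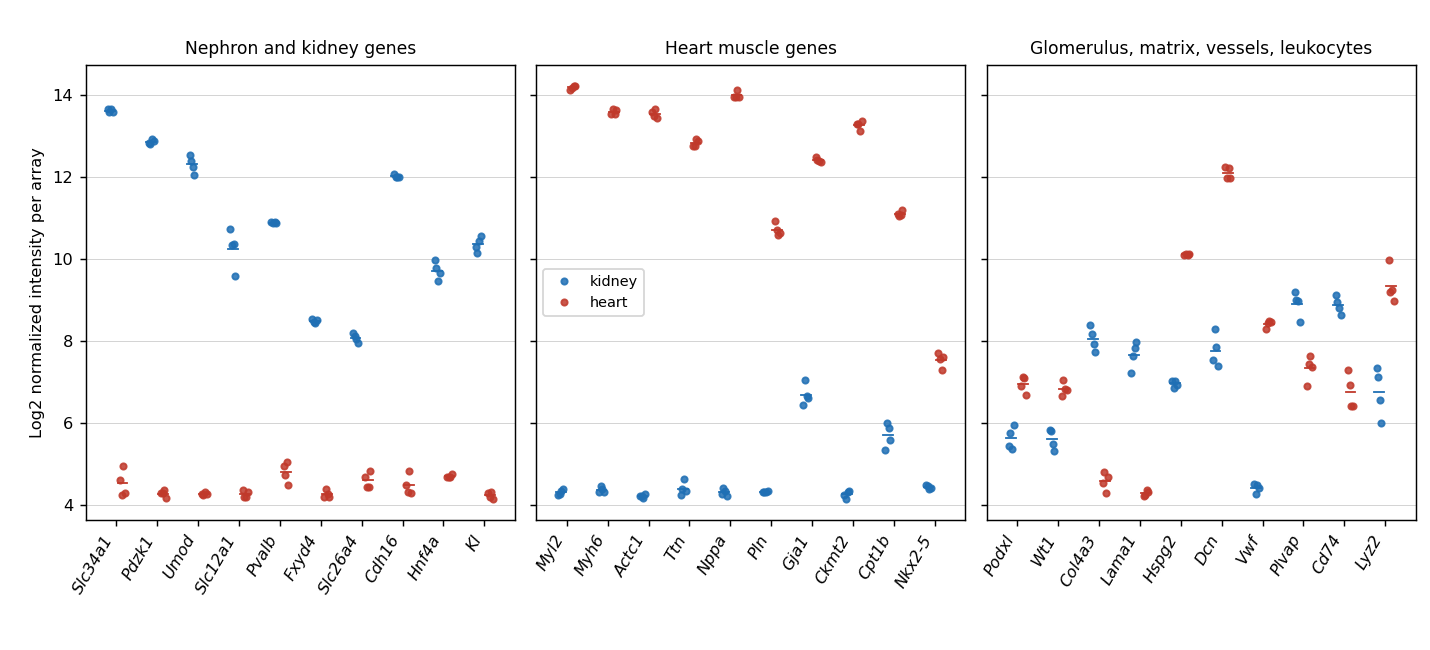
Log2 normalized intensity of 30 genes on each of 4 kidney (blue) and 4 heart (red) arrays, with a bar at each mean. Nephron genes (left) and heart muscle genes (middle) separate completely, while Podxl and Wt1 (right) are lower in kidney than in heart and Col4a3, Lama1, Plvap and Cd74 higher.

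Most tested epithelial, regulatory and endocrine genes of the kidney followed the tubule. Cdh16, the cadherin of renal epithelium, read 12.07, 12.00, 11.99 and 12.00 in kidney and 4.48, 4.30, 4.83 and 4.28 in heart (7.54, SE 0.11). In the junction and keratin list 8 of 10 genes were higher in kidney (median 1.96), and 2 were higher in heart. Cdh1, epithelial cadherin, differed by 2.77, and Cdh2, the cadherin of heart muscle junctions, by −2.62 with no detected kidney array (at least 4.78-fold). Of 14 transcription factors with a probe 9 were tested, and Pax2 was among those that did not pass the detection filter. Of the 9 tested, 8 were higher in kidney, 6 were detected in no heart, and Grhl2 was not called. Nr1h4, the bile acid receptor FXR, differed by 6.49, Hnf4a by 5.01, Hoxb7 by 3.87 and Pax8 by 1.13. All 7 tested hormone and vitamin D genes were higher in kidney (median 4.73), 4 of them without a detected heart array. Ren1 has no probe named here, and Epo and Cyp27b1 did not pass the detection filter. Kl, klotho, the co-receptor of the phosphate hormone FGF23, read 10.29, 10.14, 10.43 and 10.54 in kidney and was detected in no heart (at least 57.7-fold). The parathyroid hormone receptor Pth1r differed by 4.87 and the vitamin D receptor Vdr by 4.73.

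Metabolic genes of the kidney were higher as groups, with a few named exceptions. All 16 tested genes of amino acid and creatine metabolism were called higher in kidney (median 3.18), 7 of them detected in no heart, led by Miox, which opens the inositol ring (8.38), the argininosuccinate synthase Ass1 (7.54) and the glycine acyltransferase Glyat (7.50). All 11 tested peroxisome genes were higher (median 1.75), 4 of them detected in no heart, from Amacr (0.42) to Slc27a2 (8.35), a very long chain acyl-CoA synthetase. In gluconeogenesis 5 of 6 genes were higher in kidney (median 1.37). Fbp1 differed by 5.87 and G6pc, the glucose-6-phosphatase, by 4.68. Fbp2, the muscle fructose bisphosphatase, was higher in heart (−0.91, SE 0.10, adjusted p = 2.81e-06). Among detoxification genes 10 of 14 were higher in kidney (median 1.35), with the cytochromes P450 Cyp4b1 (7.28), Cyp7b1 (6.57) and Cyp2e1 (6.47) at the top. Ephx1, Ephx2 and Gstm1, of the epoxide hydrolases and glutathione transferases, were higher in heart by 0.51 to 0.52.

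All 10 tested thick filament genes were higher in heart (median −7.70), and 9 of them were detected on no kidney array. The exception was Myl4, an atrial light chain, which was detected on all 4 kidney arrays (−7.77). Myh7, the beta myosin heavy chain, had the smallest difference of the 10 (−2.34). Of 7 thin filament genes 6 were higher in heart (median −5.27), and 5 were detected in no kidney. Tnni3, cardiac troponin I, read 4.38, 4.45, 4.40 and 4.33 in kidney and 9.69, 9.42, 9.78 and 9.76 in heart, at least 32.7-fold higher. Tpm1, a tropomyosin made in muscle and in other cells, read 8.73, 8.79, 8.90 and 8.64 in kidney and 8.82, 8.65, 8.68 and 8.67 in heart. These groups overlapped, and the difference of 0.06 (SE 0.10) was not called, while it was −0.49 and called in heart with the common median. All 18 Z disc and costamere genes were higher in heart (median −6.0), 9 of them detected in no kidney, from Csrp3 (−8.79) to Synpo2l (−1.75). Ankrd1, a stretch-responsive repeat protein, differed by −7.98 and Actn2, sarcomeric alpha-actinin, by −7.97.

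Calcium handling, conduction and cardiac regulators leaned to heart with smaller medians. In calcium handling 12 of 14 tested genes were higher in heart (median −2.16), and 9 of the 14 were detected in no kidney. Hrc, a calcium-binding protein of the sarcoplasmic reticulum, was at least 191-fold higher, and Sln, an atrial regulator of the calcium pump, at least 161-fold. Pln, phospholamban, read 4.32, 4.31, 4.32 and 4.32 in kidney and 10.92, 10.71, 10.57 and 10.63 in heart, at least 67.4-fold higher. Atp2a2, the calcium pump itself, was detected in every array of both organs and differed by −4.41. Fkbp1b, which binds the calcium release channel, was higher in kidney instead (0.66, SE 0.10, adjusted p = 9.35e-05) and was detected in no heart. All 15 tested ion channel and gap junction genes were higher in heart (median −1.53), 7 of them detected in no kidney, with Popdc2 at −6.99 and Gja1, connexin 43, at −5.74. Kcnq1 was called higher in heart on its brightest probe (−0.73) and higher in kidney on another (0.40). Dimmer probes of Kcne1 were not called. Of 13 tested transcription factors 12 were higher in heart (median −1.38), and 7 of the 13 were detected in no kidney. Gata6 differed by −4.62 and Nkx2-5 by −3.10, while Tbx5 differed by −0.28 and Gata4 by −0.47. All 4 tested genes of the natriuretic list were higher in heart, 3 of them detected in no kidney. Nppb, B-type natriuretic peptide, was at least 105-fold higher and Corin, the protease that processes pro-ANP, 25.2-fold.

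Most tested genes of 4 energy metabolism lists were higher in heart, with exceptions in each. In fatty acid oxidation 14 of 16 genes were higher in heart (median −2.31). Cpt1b, the muscle carnitine palmitoyltransferase, read 5.32, 6.00, 5.86 and 5.58 in kidney and 11.08, 11.05, 11.07 and 11.20 in heart (−5.41, SE 0.12). Pdk4, the kinase that closes pyruvate dehydrogenase, differed by −5.78 and Fabp3, the fatty acid binding protein of heart, by −4.98. The brightest probe of Acadm, the medium chain dehydrogenase, did not differ by the test (0.01, SE 0.10), whereas its second probe was called at −2.15. In energy transfer and glycolysis 14 of 15 genes were higher in heart (median −4.22), and Ckm, muscle creatine kinase, was at least 129-fold higher. The citric acid cycle had 16 of 19 genes higher in heart (median −1.93), led by Mdh2 (−3.71), Cs, citrate synthase (−3.31), and Pdhb (−3.27). Idh3b, a subunit of NAD-linked isocitrate dehydrogenase, ran against the list at 10.36, 10.63, 10.39 and 10.48 in kidney and 8.59, 8.25, 8.48 and 8.39 in heart (2.04, SE 0.11). Its partners Idh3a and Idh3g were higher in heart, by −2.43 and −0.43, and the GTP-linked Suclg2 was higher in kidney (0.62).

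Of 48 tested subunits of the respiratory chain 45 were higher in heart (median −1.31), from −3.43 for Ndufb10 to −0.31 for Cox6b1. Within this list Atp5b (0.22) and Uqcr10 (0.25) were called higher in kidney, and Atp5g3 was not called. The subunits Cox6a1 (2.40) and Cox8a (1.18), counted with the paired isoforms, were higher in kidney as well. With the common median Uqcr10 turned to −0.39, 47 subunits were called higher in heart and none in kidney. A second probe of Uqcr10 was not called (0.01). Ndufv3 was called higher in heart on its brightest probe (−0.89) and higher in kidney on its dimmest (0.35).

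Related genes with a muscle and a broader or epithelial form divided between the organs. Of 11 such pairs, 7 had one member higher in kidney and the other in heart, and in 4 both were higher in heart. The subunit Cox6a1 was higher in kidney by 2.40 and its muscle counterpart Cox6a2 in heart (−8.74). Cox8a differed by 1.18 and Cox8b by −7.90. Cox8b read 5.12, 6.60, 4.21 and 4.28 in kidney, where replicate 2 was highest, and 12.94, 12.94, 13.01 and 12.94 in heart. The glucose transporter Slc2a2 was higher in kidney by 3.64 and Slc2a4, the insulin-responsive GLUT4, in heart (−3.67). The gap junction gene Gjb2 read 8.74, 8.45, 8.75 and 8.05 in kidney and was detected in no heart (at least 16-fold), opposite to Gja1. For hexokinase, phosphofructokinase and glycogen phosphorylase both forms were higher in heart, the muscle form by more: Hk2 differed by −6.98 and Hk1 by −1.13. The difference between the members of a pair was not tested. Ckb, the brain form of creatine kinase, was the kidney-higher member nearest to 0 (0.37, against −7.47 for Ckm). Over the 26 isoform genes listed, 7 were called higher in kidney, and 6 with the common median.

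**Figure D3:**
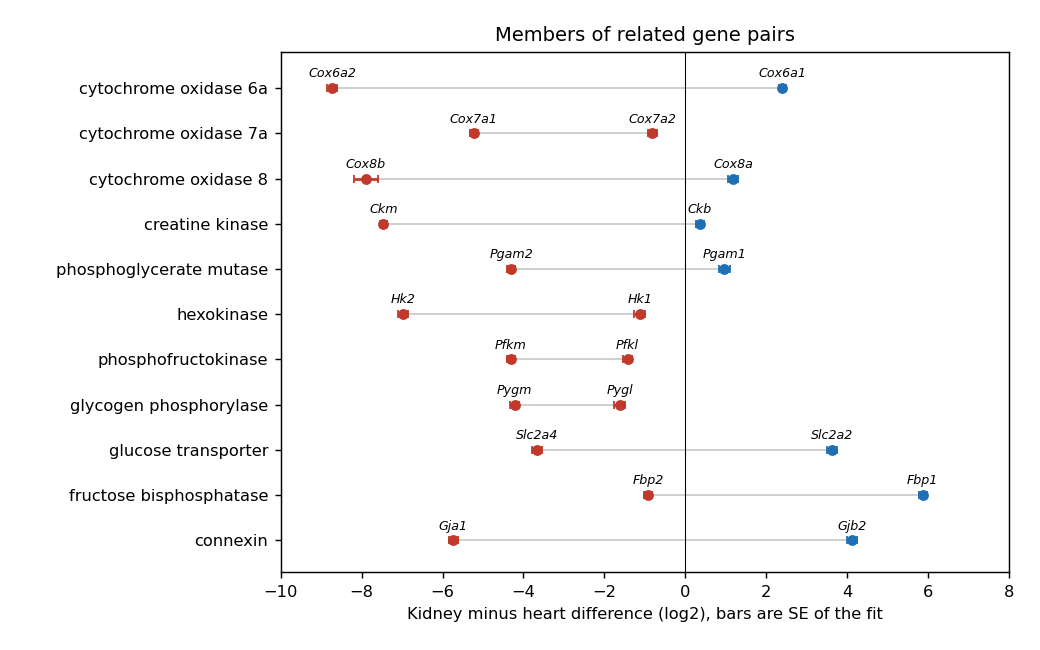
Kidney minus heart difference (log2, with the SE of the paired fit) for the members of 11 pairs of related genes. In 7 pairs the line crosses 0, and in the other 4 both members lie on the heart side.

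Vessels and connective tissue were higher in heart in most of their genes. Of 19 endothelial genes 15 were higher in heart and 3 in kidney (median −1.65). Vwf, von Willebrand factor, read 4.51, 4.27, 4.49 and 4.40 in kidney and 8.28, 8.44, 8.49 and 8.45 in heart, and was detected in no kidney (at least 13.8-fold). Cav1, caveolin 1, differed by −3.98 and Pecam1 by −2.07. Plvap, the diaphragm protein of fenestrated vessels, ran the other way at 9.20, 9.00, 8.96 and 8.45 in kidney and 6.90, 7.43, 7.62 and 7.36 in heart (1.57, SE 0.16). Ehd3, which marks glomerular endothelium, was also higher in kidney (1.52). Aqp7 was called higher in kidney on its brightest probe (0.39) and higher in heart on 2 others (−0.78 and −0.26). Of 15 fibroblast genes 13 were higher in heart (median −2.69), among them the proteoglycans Lum (−4.94) and Dcn (−4.34) and the collagen Col1a1 (−2.34). Dpep1, higher in kidney (1.52), is an enzyme of the brush border as well. Smooth muscle genes were higher in heart in 5 of 8 cases, and Mylk, myosin light chain kinase, was higher in kidney (1.27).

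Basement membrane genes split by chain. Col4a3 and Col4a4, the collagen IV chains of the glomerular basement membrane, and Lama1, a laminin of tubular basement membranes, were higher in kidney. Col4a3 read 8.38, 8.17, 7.92 and 7.72 in kidney and 4.54, 4.80, 4.29 and 4.68 in heart (3.47, SE 0.13), and Col4a4 differed by 3.61. Lama1 read 7.21, 7.63, 7.82 and 7.96 in kidney and was detected in no heart (at least 8.9-fold). Col4a5, the third chain of that collagen, read 6.69, 6.80, 6.65 and 6.67 against 6.89, 6.72, 6.74 and 6.65 and was not called (−0.05, SE 0.10). The ubiquitous chains Col4a1 (−0.91) and Col4a2 (−1.47), the muscle laminin Lama2 (−3.07) and the proteoglycan Hspg2 (−3.15) were higher in heart. In all, 8 of 13 genes were higher in heart and 3 in kidney.

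Leukocyte genes did not share 1 direction. The antigen presentation genes H2-Eb1 (2.30), Cd74 (2.12) and H2-Ab1 (1.98) were higher in kidney, and Cd74 read 9.11, 8.94, 8.81 and 8.62 there against 7.28, 6.92, 6.40 and 6.40 in heart. The macrophage genes Mrc1 (−2.70), Lyz2 (−2.59), Cd163 (−2.10) and the complement genes C1qa, C1qb and C1qc (−1.38 to −2.14) were higher in heart. Cd52 (0.82) and Cd14 (0.64) were higher in kidney too. Over the list 5 of 13 were higher in kidney, a share near that of all genes, and 7 in heart. Lyz2 read 7.34, 7.12, 6.54 and 5.98 in kidney and 9.97, 9.19, 9.24 and 8.96 in heart. In both organs mouse 1 was highest and mouse 4 lowest.

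Genes of other tissues were read as well, and what else the samples held was not tested. The 3 erythrocyte genes with a probe, of 8 listed, were higher in heart, Hbb-b2 by −3.28, Alas2 by −2.74 and Hba-a1 by −0.67. Their summed linear intensity was 10251 to 13495 in kidney and 18745 to 20369 in heart. Most of this sum came from Hba-a1, with mean levels of 13.50 in kidney and 14.17 in heart. Of the adrenal cortex list 1 of 7 genes with a probe passed the filter, Cyp11b2, at a difference of 0.24 that turned to −0.09 with the common median. Of the skeletal muscle list 3 of 9 passed, none of them detected in kidney, with Atp2a1 farthest from 0 (−1.80). Of the liver list 4 of 6 genes with a probe passed the filter, and Alb and Fgb did not. Ttr, the thyroxine carrier of liver and choroid plexus, read 11.72, 11.53, 11.48 and 11.36 in kidney and 5.45, 4.81, 5.54 and 4.82 in heart (6.37, SE 0.13). Serpina1a was also higher in kidney (0.95), while Apoa1 and Apoa2 were not called.

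Some of the adipocyte genes set 1 kidney apart. All 6 tested genes of 8 with a probe summed to 161, 320, 145 and 146 in linear intensity in kidney and to 960, 793, 716 and 555 in heart. Kidney replicate 2 held the highest level of Ucp1, the uncoupling protein of brown fat, at 4.38, 5.77, 4.16 and 4.16 in kidney, and Cidea, a lipid droplet protein, stood at 4.36, 6.32, 4.29 and 4.24. Adipoq, adiponectin, read 4.31, 5.31, 4.30 and 4.41, and all 3 were detected in kidney on that array alone. Cox8b, which brown fat and muscle both make, was highest in the same kidney. Other members did not set it apart: Lep read 5.20, 5.35, 5.27 and 5.17 in kidney. Cidec read 4.18, 4.19, 4.21 and 4.25 and was detected in no kidney. Ucp1, Cidea, Adipoq and Cox8b were detected in every heart: Ucp1 read 7.83, 5.33, 6.91 and 5.27, and Cidea 8.63, 8.21, 8.54 and 8.37. Whether fat left on the organ entered any result was not tested. Without mouse 2, kidney calls went from 2 to 0 in the respiratory chain and from 11 to 10 in the peroxisome list. Heart calls went from 12 to 11 in calcium handling and in heart transcription factors and from 16 to 17 in the citric acid cycle. Counts also changed in the junction and keratin, endothelium, liver, clock, immediate early and reference gene lists. Some lists had fewer members tested, with 12 heart transcription factors in place of 13.

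**Figure D4:**
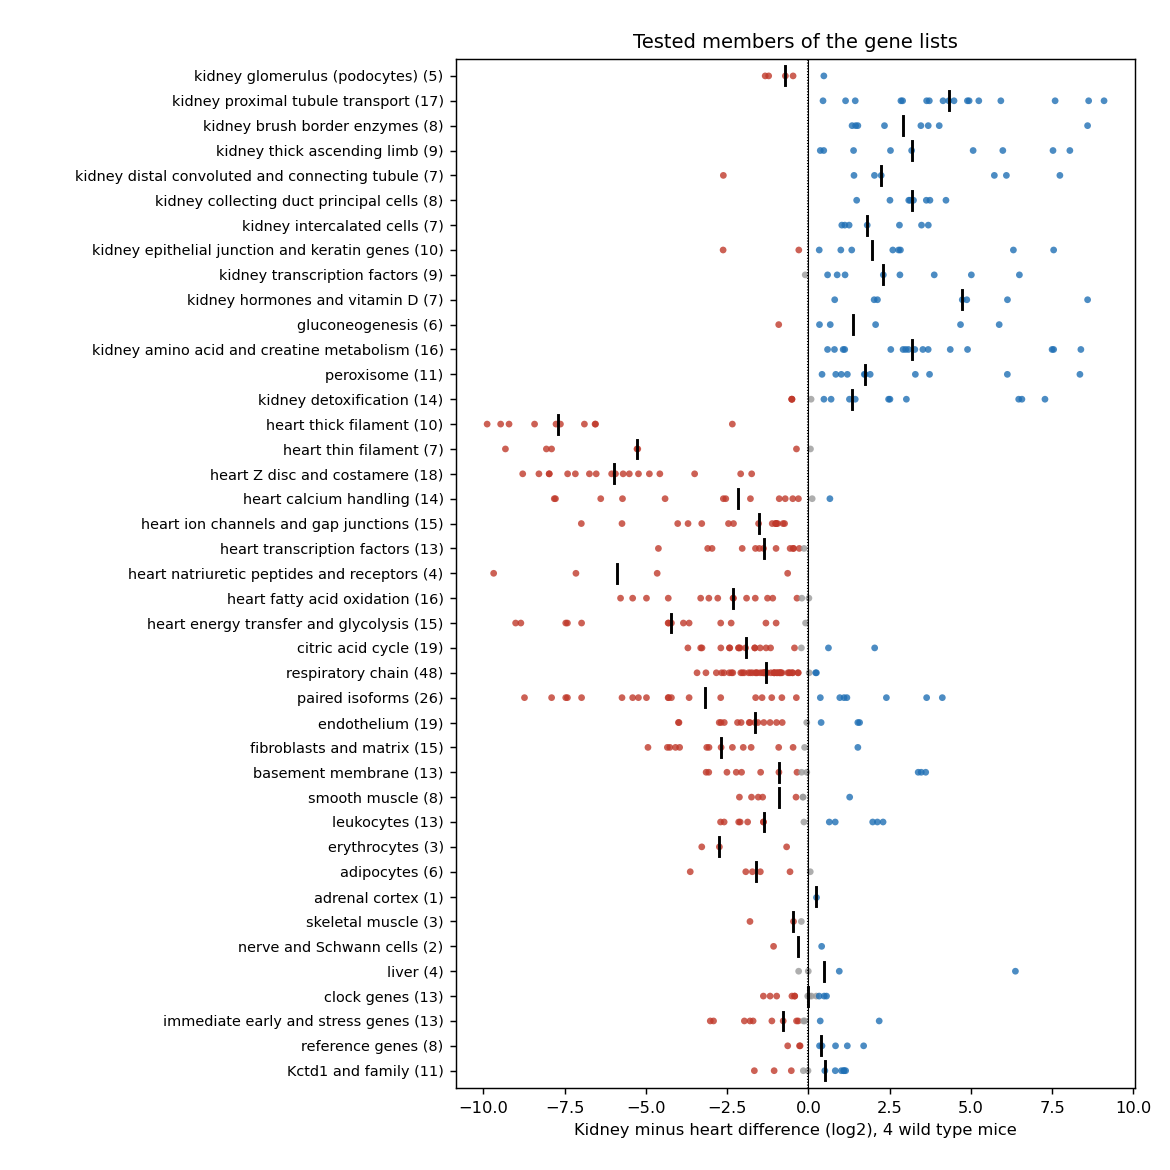
Kidney minus heart difference (log2) of the tested members of the gene lists except the sex-linked genes, with the number tested in brackets. Blue marks calls in kidney, red calls in heart and grey no call. The bar is the list median and the dotted line the median of all genes. Nephron lists except the podocyte list lie right of it and sarcomere and energy lists left, and the medians of the adrenal, reference gene and Kctd lists turn below 0 with the common median.

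Genes often used as references were not level. Of 8 tested, 5 were higher in kidney and 3 in heart, with a median of 0.38 that turned to −0.17 with the common median. Gusb read 9.36, 9.54, 9.55 and 9.49 in kidney and 7.94, 7.68, 7.80 and 7.72 in heart (1.70, SE 0.10), and Ywhaz differed by 1.20 and Tbp by 0.83. Gapdh was higher in heart (−0.27), and B2m as well (−0.64). The 5 tested probes of Actb ran from −0.47 to 0.57, and those of Hprt from −0.65 to 0.42. Suds3, a corepressor subunit, had the smallest difference among bright probes with a gene name. It stood at 10.39, 10.61, 10.41 and 10.53 in kidney and 10.43, 10.45, 10.54 and 10.50 in heart, and with the common median it differed by −0.53.

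Kctd1, the gene that the study mutated, has no probe named here. Of 11 tested members and AP-2 factors, the partners of Kctd1, 6 were higher in kidney and 3 in heart (median 0.50, or −0.03 with the common median), a share of calls near that of all genes. Kctd15, the closest relative, read 5.73, 5.83, 5.83 and 5.91 in kidney and 4.54, 4.78, 4.79 and 4.81 in heart (1.09, SE 0.09). The AP-2 factor Tfap2a differed by 1.14 and was detected in no heart. Tfap2b, an AP-2 factor of the distal nephron counted with the kidney transcription factors, differed by 2.81. Kctd9 was higher in heart (−1.66, SE 0.11).

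Differences between the mice that both organs share were tested for each probe. A moderated F test of the mouse terms called 1 of 13596 probes (0.00736%), Car3, and 989 had an unadjusted p under 0.05. The count was 79 with the common median, 8 with a trended and robust spread, 4 without mouse 4, and 0 without background correction or without mouse 3. Car3, the carbonic anhydrase of fat and muscle, read 5.48, 6.44, 4.94 and 5.06 in kidney and 7.13, 7.89, 6.43 and 6.38 in heart (adjusted p = 0.00678). Mouse 2 was highest and mouse 1 second in both organs. Car3 is itself 1 of the 6 adipocyte genes summed above, so it is part of the sum that was highest in kidney replicate 2. Ucp1, Cidea and Adipoq were highest in that kidney too. In heart, Adipoq was highest in mouse 2 (7.15), but Cidea was lowest there (8.21) and Ucp1 (5.33) lay below mice 1 and 3. The part of these genes in the result was not tested. In brain, on the 12 wild type arrays normalized together, no array detected Car3.

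No clock gene passed this test, and the smallest adjusted p among the 13 tested was that of Dbp and Per2, 0.0527, which an unnamed probe (ILMN_2835423) and Gripap1 shared. Clock, Npas2, Cry2, Nr1d1 and Hlf had adjusted p of 0.846 to 0.952. Dbp, an output factor of the circadian clock, read 9.23, 10.03, 10.30 and 10.35 in kidney and 8.61, 9.23, 10.02 and 10.12 in heart (adjusted p = 0.0527 for mouse). Ciart, a clock repressor, on the dimmer of its 2 probes, read 4.72, 5.01, 5.52 and 6.02 in kidney and 4.43, 4.75, 5.01 and 5.49 in heart, with the same adjusted p (0.102 on its brighter probe). Mouse 1 was lowest and mouse 4 highest in both organs for both genes. Arntl, the activator BMAL1, was highest in mouse 1 and lowest in mouse 4 in both organs, at 5.30, 4.93, 4.32 and 4.28 in kidney and 6.23, 6.08, 5.74 and 5.50 in heart (adjusted p = 0.231). In brain, from the 12 arrays normalized together, Dbp read 9.96, 9.98, 10.17 and 10.03 and Ciart 5.87, 6.12, 6.39 and 6.57. The labels give no time of day, and the numbers of the arrays follow the mice in each organ, so mouse and array order cannot be told apart. The adjusted p of Dbp ran from 8.86e-05 to 0.868 over 10 settings and passed in 6 of them, and that of Car3 from 2.39e-06 to 0.41, passing in 7. Between the organs, 3 of 13 clock genes were higher in kidney and 6 in heart, led by Nr1d2 (−1.39). With the common median 0 were called in kidney and 7 in heart. Tef was called higher in kidney on its brightest probe (0.56) and higher in heart on another (−0.39).

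**Figure D5:**
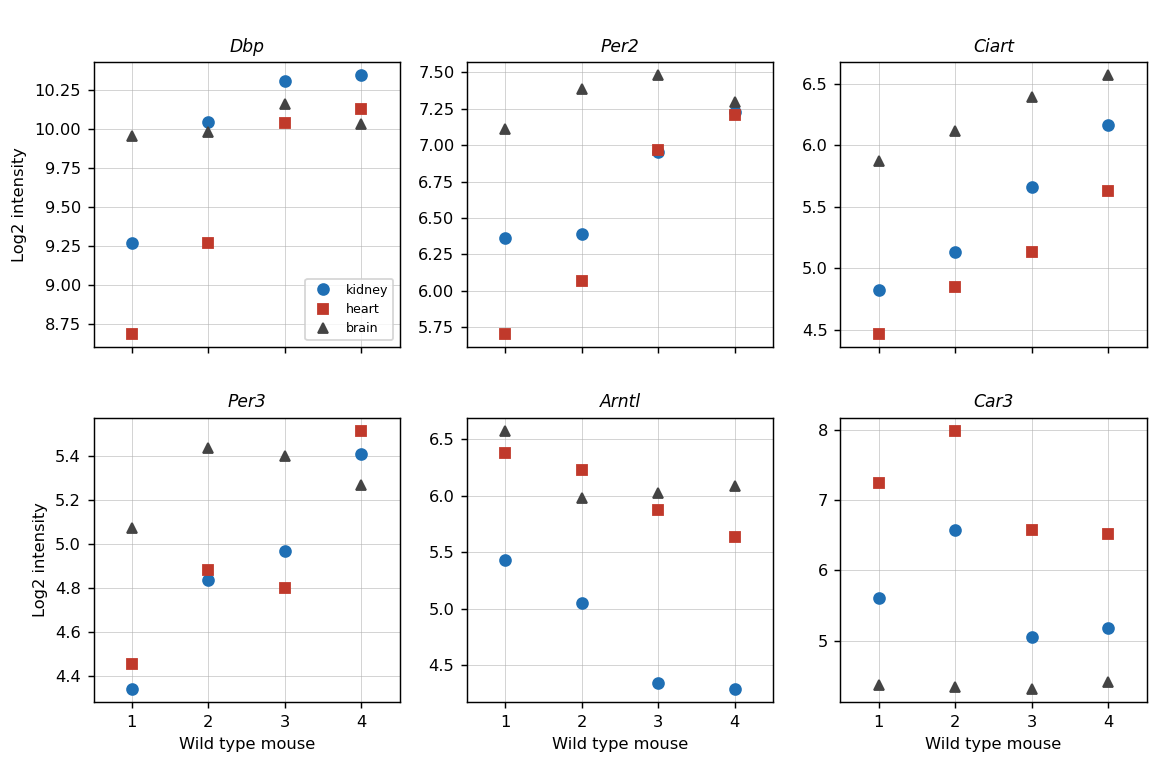
Log2 intensity of 5 clock genes and Car3 in kidney (circles), heart (squares) and brain (triangles) of wild type mice 1 to 4, from the 12 wild type arrays normalized together; 1 point is 1 array. Dbp and Ciart are lowest in mouse 1 in kidney and heart, Arntl is highest there, and Car3 peaks in mouse 2.

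Some genes varied widely within 1 organ. Bcl6, a transcriptional repressor that growth hormone signalling represses, read 9.76, 7.39, 10.32 and 7.11 in the 4 kidneys, the widest range of any probe detected on all of them. Cish, a suppressor of cytokine signalling that the same pathway induces, read 6.25, 8.60, 6.66 and 9.20. Mice 1 and 3 thus had high Bcl6 and low Cish in kidney, and mice 2 and 4 the reverse. In heart Bcl6 read 8.91, 8.19, 8.28 and 8.38 and Cish 8.41, 9.20, 8.72 and 9.30. Irs2, an adaptor of the insulin receptor, read 6.62, 7.72, 7.24 and 8.57 in kidney. In heart the widest ranges were those of Ucp1 and Scd1, a lipogenic desaturase, which read 10.65, 9.61, 10.09 and 8.11. Thrsp, another lipogenic gene, read 6.95, 5.58, 5.78 and 4.85. Egr1, an immediate early gene, read 9.74, 9.39, 8.37 and 8.07 in heart against 5.95, 6.29, 5.94 and 5.70 in kidney (−2.92, SE 0.19). In the list of immediate early and stress genes 9 of 13 genes were higher in heart and 2 in kidney, among them Havcr1, the injury marker KIM-1 (2.18, SE 0.12).

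The same contrast in the 4 heterozygous mice, on arrays that the wild type fit did not use, called 9830 of 13549 probes (72.6%). All 4055 wild type 2-fold calls were tested there, 4053 were called with the same sign and 0 had the opposite sign. The median gap between the 2 differences was 0.128 and the largest 1.48. The genotype-by-tissue term, fitted on the 16 arrays normalized together, was called for 14 of 14149 probes (0.0989%), and 994 had an unadjusted p under 0.05. The count was 6 with the common median and 7 without wild type mouse 3 or heterozygous mouse 4. Clu, the secreted chaperone clusterin, differed between kidney and heart by −2.55 in wild type and −1.26 in heterozygous mice, with kidney means of 9.03 ± 0.12 and 10.30 ± 0.13 (SD, n = 4 each). For Pvalb, a gene of the distal convoluted tubule named above, the differences were 6.09 and 4.89. Its kidney mean was 10.86 ± 0.02 in wild type and 9.74 ± 0.08 in heterozygous mice (SD, n = 4 each).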

How the data were processed

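RNA of 4 wild type kidneys and 4 wild type hearts was hybridised to Illumina mouse bead arrays, and GenomeStudio 2011.1 is named in the submitters' processing notes. The deposited table holds mean bead intensity per probe, not normalized, and the detection p-value the authors' software gave, per the file headers. The authors' deposited value table was used only as an alternative, on the log2 scale. It holds values below 0, its columns share nearly the same quantiles within an organ and not between organs, and its exact scaling is not given in the sources used here. Depth does not apply to arrays, and their number limits the precision. The labels do not say whether an array is a separate extraction, and replicates are separate mice.

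The 8 arrays were corrected and quantile normalized with neqc of limma 3.58.1 in R 4.3.3 (offset 16), and 13596 probes detected on at least 2 of 4 arrays of either organ were fitted with the mouse as a fixed block. The mouse identifier in the labels ties both arrays to 1 animal. Deviations of the 2 arrays of a mouse from their group means correlated at 0.24, −0.02, 0.02 and 0.17. Adjusted p-values are limma's with Benjamini-Hochberg adjustment over all tested probes. Gene names came from the platform annotation, which gives 1 gene to 23978 probes and leaves 1719 unnamed here. The fit was tested on simulated data in which few probes differed between the organs and normalization was not rerun. That setting differs from these data, where most tested probes were called.

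The gene lists and members were chosen with earlier results of these data known. Named were, of each list, the 4 called genes with the largest differences and the one farthest against the list median, the 12 largest differences in each direction, 4 level probes, 4 of widest range per organ and 4 of the smallest mouse p. Other genes named, Cltrn, Ptpro, Idh3a, Irs2 and further list members among them, were chosen after their values were seen. Alternatives changed the block, background correction, offset, normalization, filter, estimate of the spread and the mice.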

Additional observations from a re-analysis of the deposited data

Results flagged for a closer look

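The kidney minus heart difference depended on genotype for 14 probes of 13 genes in the test of that dependence. All values are wild type minus heterozygous differences on the log2 scale from limma. Clu gave −1.28 (SE 0.13, adjusted p = 0.000714), with a heart mean of 11.58 in wild type and 11.56 in heterozygous mice. Pvalb gave 1.20 (SE 0.13, adjusted p = 0.00181), with heart means of 4.77 and 4.84. The beta-defensin genes Defb2 and Defb42 gave −1.21 and −0.97, and their kidney means were 4.80 and 4.96 in wild type against 6.06 and 5.93 in heterozygous mice. Both probes of Wfdc15b, a gene of the whey acidic protein family, gave 1.10 and 0.84, with kidney means of 11.20 and 7.52 against 10.07 and 6.66. Spink8, a protease inhibitor gene, gave −0.94, Scg5, a chaperone of prohormone convertase, −0.79, and Reep6 −0.95. Sycn gave 1.44, Rasgrp1 1.30, Olfml2b 1.10 and Slc6a12, the betaine transporter, 0.92. Actg2, smooth muscle actin, gave −0.84, and here the heart mean was 6.09 in wild type and 5.56 in heterozygous mice.

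Single arrays were flagged in 22 of 331 groups of 4 that had a detected array, where chance flags about 1 in 20. Many of these flags may thus be chance. The flag compares the gap to the nearest other array with the range of the group, so it can mark small gaps. Atp5b, for example, read 14.17 on the flagged array and 14.22 on the other 3 kidneys. Some of the genes were named for a wide range or after their values were seen. In kidney replicate 2 the flagged genes were Cidea (6.32), Ucp1 (5.77) and Adipoq (5.31), all above the other kidneys. In kidney replicate 1 they were Cdh16 (12.07), Vdr (9.55), Pecam1 (6.65) and C1qa (4.77), above the others, and Kctd9 (5.44), below them. Kidney replicate 3 was high for Cyp2e1 (13.04), and kidney replicate 4 was low for Atp5b (14.17) and Cox8a (11.75). Among hearts, replicate 1 was high for Dpep1 (6.93) and C1qc (7.92) and low for Kctd15 (4.54). Heart replicate 2 was low for Gstm1 (9.04) and Aqp7 (5.72). Heart replicate 3 was high for Nppa (14.13), Cox8b (13.01) and Slc22a18 (4.73) and low for Hrc (12.13). Heart replicate 4 was high for Pecam1 (8.70) and Treh (4.60). For Atp5b, Nppa and Cox8b the other 3 arrays held the same value, since quantile normalization gives equal ranks equal values.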

How the results depend on the processing

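Probes called 2-fold or more higher in kidney and in heart numbered 1907 and 2148. They became 886 and 741 at 4-fold or more, 961 and 946 without background correction, and 1207 and 1362 over probes detected on all 8 arrays, of which 6523 were called, with fewer probes tested. The heart count was 1366 with an offset of 50, 3385 with the common median and 3543 with the deposited value table. The mouse test, with 1 call, gave 0 without background correction, 3 with an offset of 50, 79 with the common median, 5 over probes detected on all 8 arrays and 8 with a trended and robust spread. Without 1 mouse each, 9298 to 9698 probes were called, 1900 to 1938 and 2146 to 2180 at 2-fold, and the mouse test gave 0 (without mouse 3) to 4 (without mouse 4). Without the replicate block 9912 probes were called, with 1907 and 2148 at 2-fold. The genotype-by-tissue test, with 14 calls, gave 6 with the common median and 18 without the replicate block. Leaving out 1 mouse it gave 7 to 17 calls, 7 without wild type mouse 3 or heterozygous mouse 4 and 8 without wild type mouse 1 or heterozygous mouse 3. These 2 alternatives, and the list counts without mouse 2 and with the common median, were chosen after seeing the data. The cause of these changes was not tested. Over 187 named probes, 3024 of 3073 pairs of probe and setting kept direction and side of the threshold, 25 lost the call, 8 gained it and 16 turned sign. Those that turned gave, with the common median and the deposited table, −0.49 and −0.44 for Tpm1, −0.69 and −0.73 for Acadm, −0.39 and −0.43 for Uqcr10, −0.33 and −0.34 for Lep, −0.089 and −0.12 for Cyp11b2, −0.53 and −0.52 for Suds3, −0.62 and −0.65 for the unnamed probe ILMN_2890533, and −0.051 and −0.015 for Dbp. Probes not above background in 1 organ give only a lower bound of the fold.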
